A study of Mus musculus with 6 samples.

Results

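Mitochondrial ribosomal protein genes were examined for accessible promoters in mouse embryonic stem cells (mESCs). The members were all protein-coding RefSeq genes of GRCm38 whose symbol begins with Mrpl or Mrps followed by a number and that have a curated transcription start site (TSS). They were 78 of 21000 such genes, 49 with an Mrpl symbol (large subunit) and 29 with an Mrps symbol (small subunit). The 6 pseudogenes whose symbols also match were left out.

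The mitochondrial ribosome translates the few proteins that mitochondrial DNA encodes, all of them subunits of the respiratory chain or of ATP synthase. Its RNA comes from mitochondrial DNA, whereas its proteins are encoded by nuclear genes, made in the cytosol and imported. Many of these proteins have a counterpart in the bacterial ribosome, and others were added in mitochondria. Their genes are spread over the nuclear genome, so that each has a promoter of its own or shares one with a neighbour.

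ATAC-seq, in which the Tn5 transposase inserts adapters into open DNA, was performed on untreated V6.5 cells. This mESC line is described as kept on irradiated fibroblast feeders with serum and LIF. The paper's own culture methods differ, since they list serum, LIF, CHIR99021 and PD0325901 for its mESCs and name no feeders. The libraries were size-selected on gels for fragments of mono- and dinucleosome length. The authors deposited a single list whose name gives this condition and no replicate, so it was taken as shared by the 2 replicates. It holds 41014 peaks, each with mm10 coordinates (the GRCm38 assembly) and a whole-number score from 540 to 953 (median 696). The list gives no signal height, and what the score measures is not given for ATAC-seq, so it orders peaks and is not read as an amount of open chromatin. A spread between replicates and a depth of reads can therefore not be given, no test over samples could be made, and all values are descriptions of 1 list. ATAC-seq of ZBTB21-degron mESCs (4 libraries, at 0 and 6 h of IAA) was not analysed here. All the labels also carry a treatment text that describes degron cells given doxycycline, although the untreated libraries name V6.5 cells as their source.

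The cell type was checked at the promoters of marker genes. Of 10 markers of embryonic stem cells, 3 had a listed peak within 1 kb of a TSS, with best scores of 861 at Pou5f1, 805 at Nanog and 892 at Zfp42, and none was listed there at Sox2, Esrrb, Klf4, Tfcp2l1, Tdgf1, Dppa4 and Utf1. Of 10 fibroblast markers 2 had one, Thy1 (829) and Pdgfrb (602), and none was listed at Col1a1, Col1a2, Twist1, Twist2, Prrx1, Dcn, Lum and Fn1. Within 5 kb it was 5 of the stem cell markers, with Tfcp2l1 (1068 bp away) and Utf1 (1529 bp) added, and still 2 of the fibroblast markers. Of all protein-coding genes, 28.5% had a listed peak within 1 kb and 39.3% within 5 kb. With 10 genes each, neither marker set can be told from these shares, so the counts do not identify the cell type. Promoters of genes that define mESCs are missing from the list. The lack of a listed peak is therefore not evidence of a closed promoter.

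A listed peak lay within 1 kb of a TSS at 40 of the 78 members (51.3%, Wilson 95% interval 40.4 to 62.1), against 5991 of all 21000 protein-coding genes (28.5%). Intervals here cover counting error over genes only, and genes are not replicates of a condition. Within 5 kb the members with a peak numbered 45 (57.7%, 46.6 to 68.0), against 39.3% of all genes. The wider window thus added 5 members, whereas for all genes it raised the number from 5991 to 8247. At 38 members (48.7%) a peak covered a TSS, against 25.2% of all genes. The other members with a peak were Mrpl20, whose peak began 392 bp from the TSS, and Mrpl40, whose peak began 800 bp away inside Hira, the histone chaperone gene on the other strand.

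**Figure D1:**
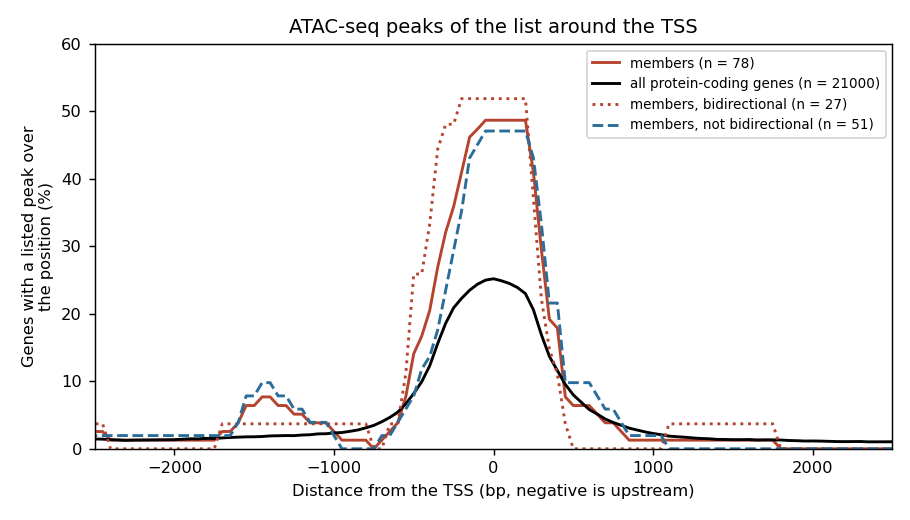
Share of genes (%) with a listed ATAC-seq peak over each position from 2500 bp upstream to 2500 bp downstream of the TSS (1 TSS per gene, the one nearest to a listed peak), in steps of 50 bp. The members reached 48.7% next to the TSS and all protein-coding genes 25.2%, and the members with a bidirectional promoter extended farther upstream than the others (25.9% against 7.84% at 500 bp upstream).

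The peaks of the members lay close to the start of the gene. A peak covered the position 500 bp upstream at 14.1% of the members and the position 500 bp downstream at 6.41%, against 8.20% and 7.98% of all genes. At 1000 bp the shares were 2.56% upstream and 1.28% downstream, against 2.35% and 2.27%. The centre of the best-scored peak lay within 300 bp of a TSS for 37 of the 40 members (92.5%) and for 79.5% of all genes with a peak. Of the 40 centres, 21 lay upstream and 19 downstream of the TSS. A median of 44.0% of the bases of these peaks belonged to annotated RefSeq exons, and the rest to introns or to sequence before the gene.

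Members of the large subunit with a peak within 1 kb were Mrpl4, Mrpl12, Mrpl19, Mrpl20, Mrpl21, Mrpl22, Mrpl23, Mrpl27, Mrpl28, Mrpl30, Mrpl32, Mrpl33, Mrpl34, Mrpl35, Mrpl37, Mrpl38, Mrpl40, Mrpl44, Mrpl45, Mrpl46, Mrpl47, Mrpl48 and Mrpl50. Those of the small subunit were Mrps5, Mrps6, Mrps9, Mrps11, Mrps12, Mrps14, Mrps17, Mrps18a, Mrps18c, Mrps21, Mrps23, Mrps27, Mrps30, Mrps31, Mrps34, Mrps35 and Mrps36. The shares were 23 of 49 for Mrpl symbols (46.9%, 33.7 to 60.6) and 17 of 29 for Mrps symbols (58.6%, 40.7 to 74.5), and their intervals overlap widely. The symbols do not follow the structure throughout, since the Mrps30 and Mrps18a proteins sit in the large subunit of the mammalian particle. Members with a bacterial counterpart had a peak in 25 of 48 cases (52.1%) and members without one in 15 of 30.

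The best score per member was set against 2 medians, that of all listed peaks (696) and that of the best peaks of all genes with a peak within 1 kb (754). The members' best scores ran from 574 to 927 with a median of 777 (25th percentile 671.8, 75th percentile 832, n = 40) and an SD of 98.3, so their median lay above both, a difference that was not tested. At 850 or more stood 8 of the 40 members and 23.5% of all genes with a peak.

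The highest score belonged to Mrpl47 (927), a large subunit protein near the exit of the peptide tunnel, whose peak covered chr3:32736397-32737406. This was higher than the best score of 96.5% of all genes with a peak. Mrps14, in the head of the small subunit, followed with 919 (chr1:160194727-160195497). Mrpl50, a protein without a bacterial counterpart, had 906 (chr4:49520791-49521637), and Mrpl38, likewise particular to mitochondria, had 884 (chr11:116138545-116139246). Mrpl35 had 876, Mrpl37 had 874, Mrps9, another protein of the small subunit head, had 870, and Mrpl21 had 863. Thus the 8 highest held 6 of the large and 2 of the small subunit, and 4 of them (Mrpl47, Mrpl50, Mrpl37 and Mrpl21) shared their promoter with a divergent gene.

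The lowest best scores were those of Mrps23 (574, chr11:88203766-88204616) and Mrpl30 (578, chr1:37890126-37890747), the members under 600. They were followed by Mrpl23 (609), whose protein lines the exit of the peptide tunnel, Mrpl27 (626), of the peptidyl transferase region, and Mrps5 (631), at the entry channel of the mRNA. Each of these peaks covered a TSS of its gene.

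**Figure D2:**
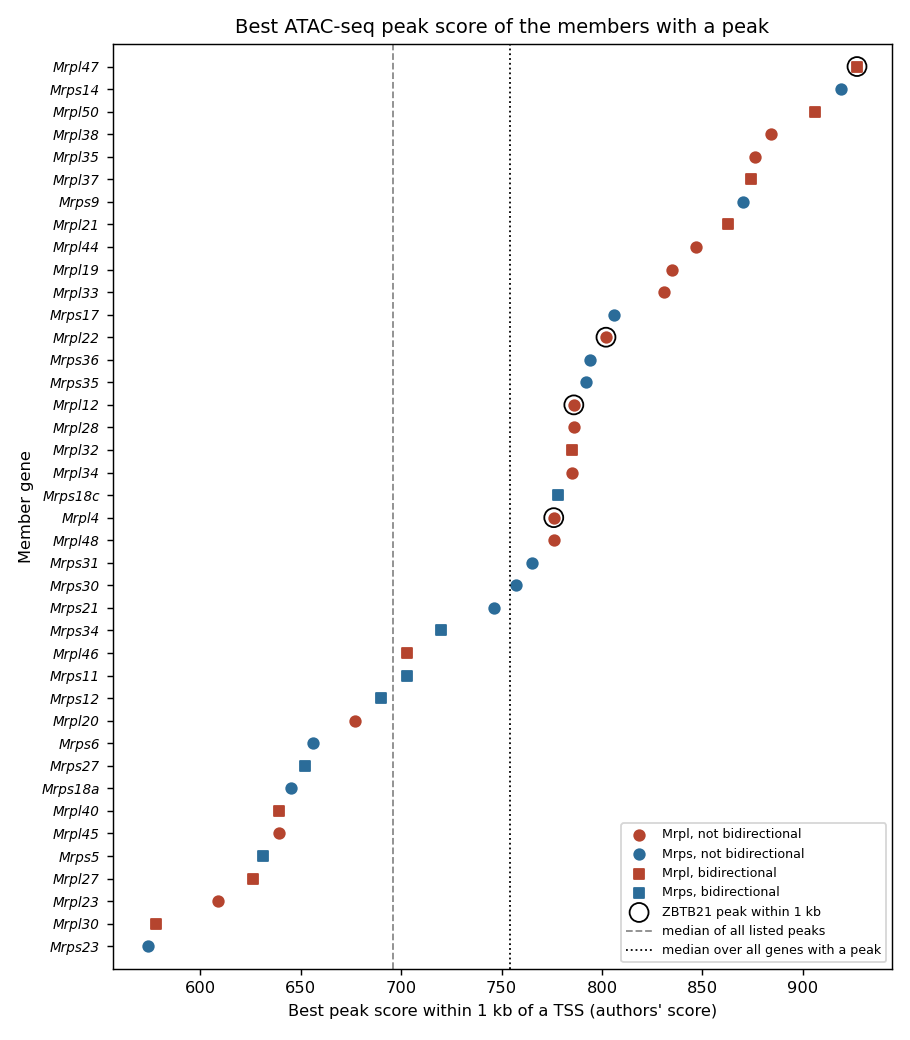
Best score of a listed peak within 1 kb of a TSS (x axis, the authors' score) for each of the 40 members with such a peak (y axis), by subunit symbol (colour), promoter type (shape) and ZBTB21 peak (ring). Scores ran from 574 at Mrps23 to 927 at Mrpl47, around the median of all listed peaks (696) and of all genes with a peak (754).

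Sequence from before the TSS is shown for members at the ends of this range, so that promoters with a high-scored listed peak can be read beside promoters with none. The 6 highest-scored members for which at least 60 bases outside annotated exons were found come first, each read 5′ to 3′ towards its gene and ending 1 base before the TSS, at chr3:32736756-32736955 for Mrpl47 (minus strand), chr1:160195015-160195214 for Mrps14 (plus strand), chr4:49521084-49521175 for Mrpl50 (minus strand), chr11:116138869-116139068 for Mrpl38 (minus strand), chr6:71823785-71823984 for Mrpl35 (minus strand) and chr1:42851033-42851232 for Mrps9 (plus strand). Capitals mark exact matches to any of 9 short motifs that are described further on.
Mrpl47: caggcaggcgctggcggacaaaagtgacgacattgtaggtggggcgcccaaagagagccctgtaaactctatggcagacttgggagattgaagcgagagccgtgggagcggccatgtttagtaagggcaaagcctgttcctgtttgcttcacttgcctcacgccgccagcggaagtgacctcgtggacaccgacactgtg
Mrps14: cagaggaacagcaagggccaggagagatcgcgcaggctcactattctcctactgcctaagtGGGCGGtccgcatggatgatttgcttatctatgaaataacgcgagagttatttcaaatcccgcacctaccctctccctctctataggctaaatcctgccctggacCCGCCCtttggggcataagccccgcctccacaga
Mrpl50: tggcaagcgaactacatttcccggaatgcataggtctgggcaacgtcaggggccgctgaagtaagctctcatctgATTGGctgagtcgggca
Mrpl38: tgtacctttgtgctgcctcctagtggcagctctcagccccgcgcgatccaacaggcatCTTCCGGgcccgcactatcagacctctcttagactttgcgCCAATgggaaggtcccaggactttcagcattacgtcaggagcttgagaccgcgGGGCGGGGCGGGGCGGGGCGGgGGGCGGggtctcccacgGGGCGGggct
Mrpl35: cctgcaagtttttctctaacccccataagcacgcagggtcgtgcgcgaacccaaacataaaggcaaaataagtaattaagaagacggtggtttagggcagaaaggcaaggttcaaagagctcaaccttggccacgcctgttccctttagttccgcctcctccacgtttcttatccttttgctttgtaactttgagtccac
Mrps9: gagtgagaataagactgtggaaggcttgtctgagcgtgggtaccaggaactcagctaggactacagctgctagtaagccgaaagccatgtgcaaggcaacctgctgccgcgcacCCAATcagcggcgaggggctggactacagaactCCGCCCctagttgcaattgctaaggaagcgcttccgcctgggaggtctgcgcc
In these 6 stretches Mrpl47 and Mrpl35 held none of the motifs, whereas Mrpl38 held 8 matches, among them a row of GGGCGG boxes beside CCAAT and CTTCCGG, the reverse complement of CCGGAAG. The stretch of Mrpl50 is the whole interval up to the TSS of its partner Zfp189. GC content ran from 47.5% in Mrpl35 to 66.5% in Mrpl38.

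The widths of the best peaks ran from 409 to 1281 bp with a median of 720 bp (SD 189, n = 40), against a median of 773 bp for all genes with a peak and 547 bp for all listed peaks. Wider than that last median were 35 of the 40, and the 25th percentile of all genes with a peak (619 bp) also lay above it. The widest were those of Mrpl23 (1281 bp), Mrps30 (1083 bp), Mrpl37 (1019 bp), Mrpl47 (1010 bp) and Mrps36 (973 bp), whose protein is also described as an adaptor of the 2-oxoglutarate dehydrogenase complex. Of these, 2 exceeded the 95th percentile of the list (1052 bp). The narrowest were Mrpl33 (409 bp, score 831), Mrpl22 (431 bp, score 802) and Mrps17 (448 bp, score 806). These narrowest peaks were thus not low-scored ones among the members, and the widest peak had one of the lowest scores. Other wide peaks scored high, as at Mrpl47 (927) and Mrpl37 (874). A relation between width and score was not measured.

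**Figure D3:**
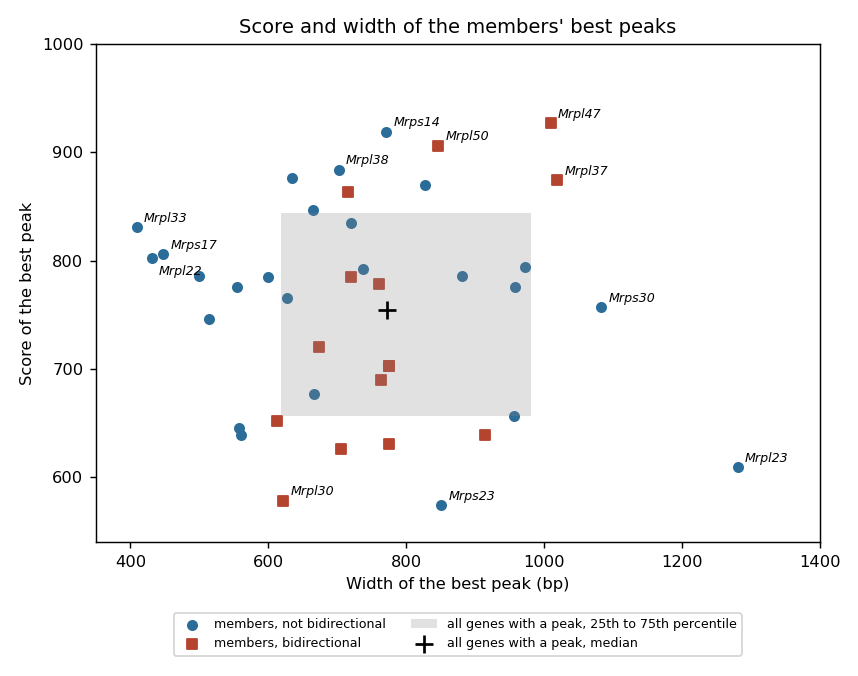
Score (y axis) against width in bp (x axis) of the best peak within 1 kb for the 40 members, with the range from the 25th to the 75th percentile of all genes with a peak shaded and their median (773 bp, score 754) as a cross. Mrpl23 is the widest (1281 bp, score 609), and Mrpl33, Mrpl22 and Mrps17 are narrower than 450 bp with scores from 802 to 831.

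More than 1 peak within 1 kb was listed at 2 members. Mrpl48, which has 4 curated TSSs over 25171 bp, had 3 peaks with scores of 776, 553 and 744, each covering a different TSS. Mrpl34 had a peak of score 709 over its TSS, and a second of score 785 whose edge lay 976 bp upstream, over the TSS of Abhd8. Its best score is therefore that of a neighbour's promoter. Another member where the peak is shared without a head-to-head pair is Mrps6, whose peak also held the TSS of the inositol transporter gene Slc5a3. In all, 16 of the 40 members had a best peak that held a TSS of another protein-coding gene, and for 24 it held none. Of the 16, 14 belong to head-to-head pairs. The same count was not made for all genes.

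Many of the members start head to head with another gene. A bidirectional promoter, with a protein-coding TSS on the opposite strand at most 1 kb upstream, was found at 27 of the 78 members (34.6%, Wilson interval up to 45.7%), against 8.86% of all protein-coding genes. The median distance between the TSSs was 131 bp (range 32 to 935 bp), against 147 bp for all genes with such a promoter. For 16 of the 27 members it was at most 150 bp, a limit close to that median of all genes. By symbol the 27 were 19 of 49 Mrpl and 8 of 29 Mrps genes.

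The 27 members had a peak within 1 kb in 15 cases (55.6%, 37.3 to 72.4) and the 51 other members in 25 (49.0%, 35.9 to 62.3). Among all genes the shares were 44.0% of bidirectional (818 of 1860) and 5173 of the 19140 other promoters. In 14 of the 15 the peak covered the TSSs of both genes, and in the other, at Mrpl40 and Hira (113 bp apart), it covered neither. The median best score of the bidirectional members was 703 (n = 15) and that of the others 786 (n = 25). For all genes the order was the opposite, with 810 at bidirectional and 745 at other promoters. Neither difference was tested.

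The pairs with a shared peak were as follows. The 2 closest were Mrpl21 with Ighmbp2, a helicase gene (32 bp apart, score 863), and Mrps34 with Eme2 (33 bp, score 720). Eme2 and Eme1, partners of the MUS81 nuclease, both neighbour a member, since Mrpl27 lay 48 bp from Eme1 (score 626). Mrpl46 and Mrps11 form a pair within the group, 42 bp apart under 1 peak (chr7:78782758-78783532, score 703, 775 bp), so the 40 members with a peak had 39 distinct best peaks. Mrpl30 lay 66 bp from Mitd1, Mrpl50 93 bp from Zfp189, Mrps27 108 bp from Ptcd2 and Mrpl37 128 bp from Cyb5rl. Mrps12, of the decoding centre, lay 147 bp from Sars2, which charges the mitochondrial serine tRNAs, under a peak of score 690. Mrps18c lay 159 bp from the helicase gene Helq (score 778) and Mrpl32 205 bp from the proteasome gene Psma2 (score 785). Mrpl47 lay 308 bp from Ndufb5, a subunit gene of respiratory complex I, and Mrps5 332 bp from Zfp661. Partners with a mitochondrial role, by background knowledge, were Sars2, Ndufb5, Ptcd2 and the paired member itself.

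The bases between Mrpl46 and Mrps11 are shown since 2 members of different subunits start from their ends. They were chosen after the values had been seen, lie at chr7:78783090-78783130 (plus strand) and hold 1 GGGCGG box, in capitals.
Mrpl46 to Mrps11: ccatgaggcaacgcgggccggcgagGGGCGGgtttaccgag
All 41 bases lay outside annotated exons, and 73.2% were G or C.

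At 12 bidirectional members neither the member nor its partner had a listed peak within 1 kb. These were Mrpl57 with Ska3 (76 bp), Mrpl13 with Mtbp (96 bp), Mrpl43 with the mitochondrial DNA helicase gene Twnk (116 bp), Mrpl14 with Tmem63b (131 bp), Mrpl2 with Klc4 (141 bp), Mrpl49 with Fau (192 bp), Mrpl10 with Lrrc46 (213 bp), Mrps7 with Gga3 (224 bp), Mrpl18 with the chaperonin gene Tcp1 (238 bp), Mrpl51 with the condensin gene Ncapd2 (614 bp), Mrps18b with Ppp1r10 (756 bp) and Mrpl41 with Pnpla7 (935 bp). A head-to-head partner thus went with a listed peak at some members and not at others.

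No peak within 1 kb was listed at 38 members. For 5 of them one lay between 1 and 5 kb away. It was 1038 bp from Mrpl53 (score 800), inside Ccdc142, and 1165 bp from Mrpl54 (score 609), over the TSS of Apba3. It was 1380 bp from Mrps2 (score 860), over that of 1700007K13Rik, and 2310 bp from Mrpl36 (score 674), over that of the complex I gene Ndufs6. At Mrpl51 it lay 3339 bp away (score 582), in no protein-coding gene. So 3 of these 5 peaks held a TSS of another protein-coding gene. At Mrps2 and Mrpl36 the peak also overlapped the annotated span of the member itself, which reaches farther upstream than its curated TSS. These peaks can therefore not be assigned to the neighbour alone.

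The remaining 33 members had no listed peak within 5 kb. They were Mrpl1, Mrpl2, Mrpl3, Mrpl9, Mrpl10, Mrpl11, Mrpl13, Mrpl14, Mrpl15, Mrpl16, Mrpl17, Mrpl18, Mrpl24, Mrpl39, Mrpl41, Mrpl42, Mrpl43, Mrpl49, Mrpl52, Mrpl55, Mrpl57, Mrpl58, Mrps7, Mrps10, Mrps15, Mrps16, Mrps18b, Mrps22, Mrps24, Mrps25, Mrps26, Mrps28 and Mrps33. Core proteins are among them, such as Mrpl2 and Mrpl3 of the peptidyl transferase region, Mrpl10 and Mrpl11 of the stalk base and Mrps7 of the small subunit head. Mrpl58, a peptidyl tRNA hydrolase built into the large subunit, is another. The nearest peak lay a median of 14960 bp away (5337 bp for Mrpl14 to 70039 bp for Mrpl3), against a median of 25800 bp for all genes with none within 5 kb. Beyond 10 kb of any peak stood 24 members (30.8%) and 48.4% of all genes.

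The same stretches are shown for the 6 members farthest from a listed peak, again up to the base before the TSS, at chr9:105053068-105053267 for Mrpl3 (plus strand), chr7:105811088-105811287 for Mrpl17 (minus strand), chr15:55557313-55557403 for Mrpl13 (minus strand), chr6:92184024-92184223 for Mrps25 (minus strand), chr6:39810937-39811136 for Mrps33 (minus strand) and chr16:84735245-84735444 for Mrpl39 (minus strand). Mrpl3 lay 70039 bp, Mrpl17 58604 bp, Mrpl13 36117 bp, Mrps25 35407 bp, Mrps33 29074 bp and Mrpl39 27136 bp from the nearest peak.
Mrpl3: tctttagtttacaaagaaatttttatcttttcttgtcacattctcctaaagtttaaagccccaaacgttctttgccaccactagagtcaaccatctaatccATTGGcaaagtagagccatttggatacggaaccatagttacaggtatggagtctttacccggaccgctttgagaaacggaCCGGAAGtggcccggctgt
Mrpl17: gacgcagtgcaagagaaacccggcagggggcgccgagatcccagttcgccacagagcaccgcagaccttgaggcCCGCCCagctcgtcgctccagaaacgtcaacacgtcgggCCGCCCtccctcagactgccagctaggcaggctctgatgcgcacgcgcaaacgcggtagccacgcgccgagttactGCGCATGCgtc
Mrpl13: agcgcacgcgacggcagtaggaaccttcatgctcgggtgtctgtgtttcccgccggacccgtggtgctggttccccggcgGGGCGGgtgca
Mrps25: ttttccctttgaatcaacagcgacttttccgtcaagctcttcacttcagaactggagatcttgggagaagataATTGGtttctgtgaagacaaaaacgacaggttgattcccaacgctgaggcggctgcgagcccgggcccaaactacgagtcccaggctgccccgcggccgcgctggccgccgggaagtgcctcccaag
Mrps33: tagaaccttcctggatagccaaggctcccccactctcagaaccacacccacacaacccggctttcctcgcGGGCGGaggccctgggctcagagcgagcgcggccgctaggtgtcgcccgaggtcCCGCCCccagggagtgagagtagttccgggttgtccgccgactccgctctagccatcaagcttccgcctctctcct
Mrpl39: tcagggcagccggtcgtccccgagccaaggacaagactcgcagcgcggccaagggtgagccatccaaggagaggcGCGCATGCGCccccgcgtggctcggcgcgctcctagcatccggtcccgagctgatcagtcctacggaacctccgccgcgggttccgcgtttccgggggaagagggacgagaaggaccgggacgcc
Each of these 6 held at least 1 match. The promoter of Mrpl3 had the sequence CCGGAAG close to the start, and those of Mrpl17 and Mrpl39 held the NRF1 core, which in Mrpl39 reads the same on both strands over 10 bases. GC content ran from 43.0% in Mrpl3 to 70.5% in Mrpl39, so the 2 sets of stretches overlapped.

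The base composition of the promoters was measured over 300 bases, from 250 before to 50 after the TSS. The members' GC content had a median of 58.0% (42.3 to 78.0%), close to the 56.7% of all genes. Their ratio of observed to expected CpG dinucleotides had a median of 0.820 (0.507 to 1.12), against 0.586. When all genes were divided into 5 equal groups by this ratio, no member fell into the 2 lowest, and the upper 3 groups held 20, 28 and 30 members. A peak within 1 kb was listed for 37.9% of all genes in those 3 groups, against 51.3% of the members.

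Within them the members had a peak in 15 of 20 cases (interval 53.1 to 88.8%) in the middle group, 13 of 28 (46.4%, 29.5 to 64.2) in the next and 12 of 30 (40.0%, 24.6 to 57.7) in the highest. All genes had one in 39.3%, 40.2% and 34.2%. The share of all genes thus lay within the members' interval in the upper 2 groups and below it in the middle one. Members with a peak had a lower median CpG ratio (0.731, n = 40) than members without (0.858, n = 38). The SD among members was 0.158 and 0.124, so the 2 sets overlap. For all genes the median was 0.716 with and 0.474 without a peak, but these include the 2 lowest groups, which hold no member. Among all bidirectional genes it was 0.814 with and 0.876 without a peak, the same order as for the members. By GC content the members with a peak were 3 of 3, 9 of 18, 14 of 24, 10 of 19 and 4 of 14 from the lowest to the highest of 5 equal groups, and all genes 8.69%, 28.4%, 42.3%, 37.8% and 25.5%. These groupings were chosen after the values had been seen.

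**Figure D4:**
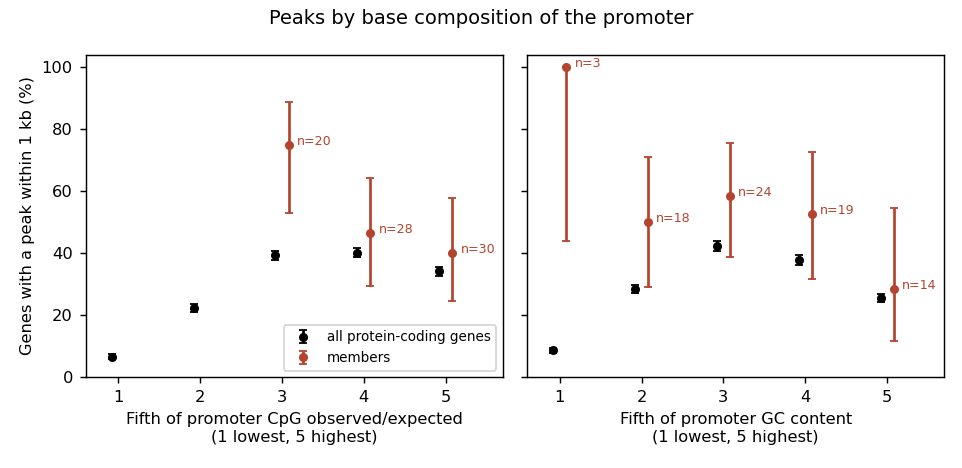
Share of genes with a listed peak within 1 kb (%, with Wilson 95% intervals over genes) by the promoter CpG ratio (left) and GC content (right), each in 5 equal groups of all genes, for the members (with their number) and for all protein-coding genes. The members stand above all genes in the middle CpG group (15 of 20 against 39.3%) and near them in the highest (40.0% against 34.2%).

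Exact matches to 9 short motifs were counted on both strands of the same windows. A match describes letters and not a bound site. The ETS sequence CCGGAAG was found at 29 members (37.2%, 27.3 to 48.3) and 2524 of the 21000 genes. The NRF1 core GCATGCGC was found at 9 members (11.5%) and 3.50% of all genes, and the YY1 sequence AAGATGGC at 12 (15.4%) and 3.26%. NRF1, the ETS factor GABP and YY1 are known regulators of nuclear genes for mitochondria. The GC box GGGCGG was found at 41 members (52.6%) and 47.5% of all genes, CCAAT at 30 (38.5%) and 38.9%, and the E-box CACGTG at 6 (7.69%) and 7.97%. The CRE TGACGTCA was found at 2 members (2.56%) and 2.48% of all genes, CTCGCGAG at 2 (2.56%) and 1.28%, and the TATA letters TATAAA at 4 (5.13%) and 12.9%. None of the 9 was found at 8 members (10.3%) and at 20.1% of all genes.

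CCGGAAG was about as frequent at members with a listed peak as at those without. It was found at 15 of the 40 members with a peak within 1 kb (37.5%) and 14 of the 38 without (36.8%). For all genes it was more frequent with a peak (18.6%) than without (9.39%). GGGCGG was found at 18 of the 40 members with a peak and 23 of the 38 without (60.5%), while in all genes it was the more frequent with a peak (59.5%, against 42.7% without). The NRF1 core was found at 3 members with and 6 without a peak (15.8% of the latter), against 4.24% and 3.21% of all genes, and the YY1 sequence at 7 and 5, against 5.01% and 2.57%. CCAAT was found at 15 members of either kind. These differences were not tested. All genes include promoters with a low CpG ratio, where no member lies, so the contrasts with all genes are not between like sets. CCGGAAG also stood at 29.3% of all bidirectional promoters. Members without a bidirectional promoter held it too, such as Mrpl3 and Mrpl38, and a link with promoter type was not tested.

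ZBTB21, the zinc finger protein whose binding the study mapped by ChIP-seq in mESCs, had 1827 peaks in the study's list. The paper mapped it with a GFP antibody in cells whose ZBTB21 carried a degron and GFP tag. The ATAC-seq list is that of untreated V6.5 cells, so the peaks compared here do not come from the same cells. One lay within 1 kb of a TSS at 8 members (10.3%), against 6.13% of all genes, which lies above the lower bound of the members' Wilson interval (5.29%). All 8 peaks covered a TSS. The 8 were large subunit genes, namely Mrpl2, Mrpl4, Mrpl12, Mrpl22, Mrpl47, Mrpl49, Mrpl54 and Mrpl55, so 8 of 49 Mrpl genes (16.3%, 8.51 to 29.0) and 0 of 29 Mrps genes (interval up to 11.7%) had one. Within 5 kb Mrps5 was added, with a ZBTB21 peak 2481 bp from its TSS.

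An ATAC-seq peak within 1 kb was listed at 4 of the 8, a share close to that of all genes with a ZBTB21 peak (50.7%) and for members without one (36 of 70, 51.4%). All genes without a ZBTB21 peak had one in 27.1%. The 4 were Mrpl47 (score 927), the exit tunnel genes Mrpl22 (802) and Mrpl4 (776), and Mrpl12 (786), of the stalk that recruits translation factors. In each the ATAC-seq and ZBTB21 peaks overlapped, as at Mrpl47 with the ZBTB21 peak at chr3:32736714-32737120. The other 4 had no ATAC-seq peak within 1 kb although ZBTB21 was mapped to the TSS, with the nearest peak 1165 bp from Mrpl54, 5583 bp from Mrpl55, 9084 bp from Mrpl49 and 15794 bp from Mrpl2. Of the 8, 3 had a bidirectional promoter (Mrpl2, Mrpl47 and Mrpl49). In the Mrpl47 stretch printed above, which lies under both peaks, none of the 9 motifs was found.

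The study also ranked chromatin loops by ZBTB21 and cohesin signal, and lists 500 as ZBTB21-responsive and 500 as less responsive. These loops were called from Hi-C of ZBTB21-degron mESCs and not of V6.5 cells. A TSS inside a responsive loop was found for 11 members (14.1%, 8.06 to 23.5), against 15.5% of all genes. These were Mrpl16, Mrpl22, Mrpl34, Mrpl37, Mrpl44, Mrpl48, Mrps17, Mrps18a, Mrps23, Mrps33 and Mrps34, and 9 of the 11 had an ATAC-seq peak within 1 kb (81.8%, 52.3 to 94.9), against 30.8% of all genes in responsive loops and 46.3% of the other 67 members. The exceptions were Mrpl16 and Mrps33. The study selected these loops for ZBTB21 peaks and lowered cohesin peaks within them and ranked them by signal summed over their ATAC-seq peaks, so the count of 9 is not independent of how the loops were chosen. Of these members, 1 (Mrpl22) had a ZBTB21 peak at its own TSS. A less-responsive loop held 1 member, Mrpl50 (1.28%, against 5.64% of all genes).

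The members lie on 17 of the autosomes, with none on chromosomes 12, 18, X and Y. Chromosome 11 holds 11 (14.1%, against 7.54% of all genes), chromosome 17 holds 8 (10.3%, against 4.89%) and chromosome 6 holds 7 (8.97%, against 5.22%). Of these, 6, 3 and 3 had a peak within 1 kb, against 32.2% of all genes on chromosome 11, 27.7% on chromosome 17 and 285 of 1096 on chromosome 6.

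Other genes of mitochondrial translation were counted from lists. Among all genes 28.5% had a peak within 1 kb. This share lies inside the Wilson interval of each list except the translation factors (66.7%, 35.4 to 87.9). Of 5 mitoribosomal proteins with other symbols 2 had a peak within 1 kb, namely the GTP-binding protein Dap3 (546, over 1732 bp) and Aurkaip1 (860), and Ptcd3, Chchd1 and Gadd45gip1 had none. Of 20 assembly and ribosomal RNA factors 8 had one (40.0%, 21.9 to 61.3), from 710 at Rbfa to 866 at Mpv17l2. Of the 9 translation factors found in the annotation 6 had one, among them the initiation factor Mtif2 (883), the elongation factor Tufm (867) and the recycling factor Mrrf (828). Of 17 mitochondrial aminoacyl tRNA synthetases 8 had one (47.1%, 26.2 to 69.0), among them Aars2 (608), Cars2 (741) and Tars2 (898). Of 9 regulators 3 had one, Yy1 (585), Polrmt (668) and Tfb2m (795), and none was listed within 1 kb of Nrf1, Gabpa, Gabpb1, Tfam, Ppargc1a and Esrra.

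Shares of other housekeeping families were near that of the members. A peak within 1 kb was listed for 48 of 91 genes with a cytosolic ribosomal protein symbol (52.7%, 42.6 to 62.7), a set that includes paralogs and like-named genes. It was listed for 22 of 48 complex I genes (45.8%, 32.6 to 59.7) and 22 of 40 proteasome genes (39.8 to 69.3%). Within 5 kb the cytosolic genes stood at 69 of 91 (75.8%, 66.1 to 83.5), the members at 57.7%, complex I genes at 54.2% and proteasome genes at 62.5%. The members' and the cytosolic genes' intervals at 5 kb overlap only between 66.1% and 68.0%, and the difference was not tested. A bidirectional promoter was found at 13.2% of the cytosolic, 35.4% of the complex I and 17.5% of the proteasome genes, so that the members' 34.6% resembled complex I. Among all genes, 28.5% had a peak within 1 kb, 39.3% one within 5 kb and 8.86% a bidirectional promoter. A ZBTB21 peak within 1 kb was found at 17.6% of the cytosolic, 16.7% of the complex I and 12.5% of the proteasome genes. For the members it was 10.3% and for all genes 6.13%. The median best scores of the families, in the same order, were 765, 800 and 790.5.

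**Figure D5:**
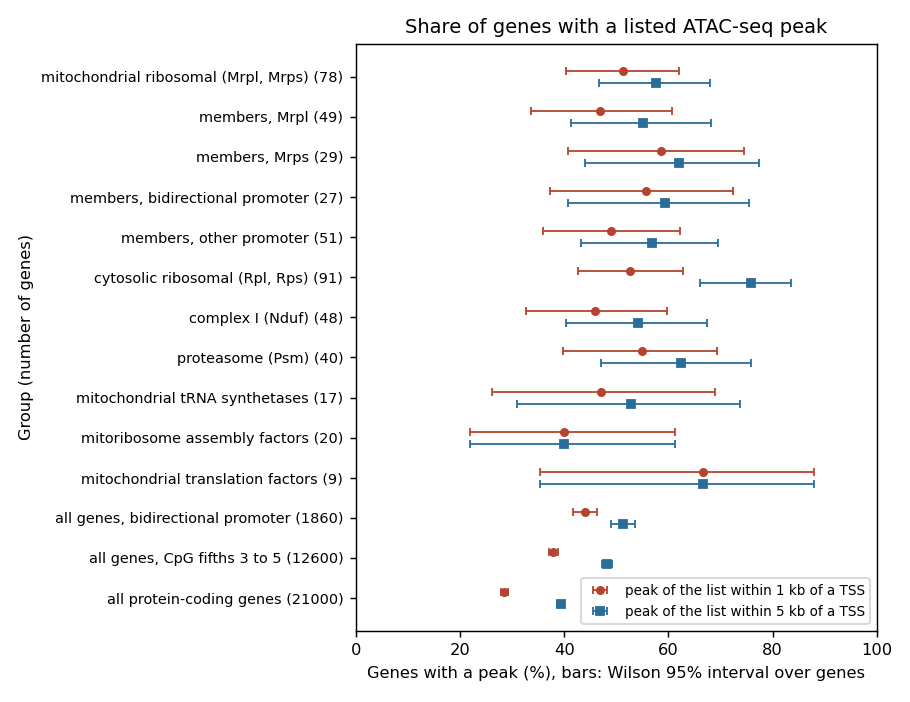
Share of genes (%) with a listed peak within 1 kb (circles) and within 5 kb (squares) of a TSS, with Wilson 95% intervals over genes, for the members and their subgroups, related gene families and all protein-coding genes (number of genes in brackets). At 1 kb the members (51.3%) stand beside the cytosolic ribosomal (52.7%) and proteasome (22 of 40) genes, and at 5 kb the cytosolic genes reach 75.8%.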

How the data were processed

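ATAC-seq was measured in 6 libraries, of which the 2 of untreated V6.5 mESCs were matched by name to 1 deposited peak list. The score of each peak is a whole number as deposited by the authors. It was used only to order peaks within the list. The submitters' processing notes name cutadapt 2.6, Bowtie2 2.3.5.1, MACS2 2.1.1 and mm10. For its ChIP-seq the study describes MACS2 peaks kept by the IDR software over 2 replicates at 0.05. The lowest score of the ATAC-seq list (540) equals the scaled IDR score at that threshold, so the score may measure agreement between replicates and not signal. For ATAC-seq, how peaks were called, whether cut sites were shifted for Tn5 and how replicates were combined are not given in the sources used here. The read depth per sample is unknown.

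TSSs were the 5′ ends of curated RefSeq transcripts of protein-coding genes on GRCm38 (26242 TSSs). A peak counted when it overlapped the window around any TSS of a gene by at least 1 bp, and the best peak was that with the highest score. Base composition and motifs were read at the TSS nearest to a listed peak. Positions of ZBTB21 peaks and loops were taken from the study's supplementary lists.

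Named with values were the 8 highest and 5 lowest scores, the 5 widest and 3 narrowest peaks, all members with a ZBTB21 peak within 5 kb, all bidirectional members and those with several peaks. The members, lists and rules were chosen with earlier results of these data known. Counting was tested on simulated data (3300 cases, 0 differing). Python 3.11.15, numpy 2.4.6, pandas 2.3.3 and scipy 1.17.1 were used. No column of per-sample values was left out.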

Additional observations from a re-analysis of the deposited data

How the results depend on the processing

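No paired analysis was possible because 1 deposited list was taken for both replicates and no result comes from a test. For the same reason no replicate could be left out. The number of members with a peak within 1 kb (40) was 28 when only peaks with a score above 696 counted, between 38 and 44 with windows from 250 bp to 2.5 kb, 38 when the peak had to cover a TSS (chosen after seeing the data), 39 by peak centre or with 1 TSS per gene, and 43 with predicted transcripts. The share of all genes was 18.7% under the stricter score and between 25.2% and 33.2% otherwise. Within 5 kb the number was between 32 and 46. Median scores stayed between 776 and 778 and the median width at 720 bp. Bidirectional members numbered between 22 and 30. The share of all genes with a peak within 1 kb was 29.9% with predicted transcripts in place of 28.5%. Of the 25 alternative values, those for the members stayed within 1.5 times the count, or within the SD over genes, of the main value. These limits are wide, since the fall from 40 to 28 members lies within them.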

Other observations

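Besides the main maximum at the TSS, the members had a smaller one upstream. A listed peak lay over the position 1400 bp upstream of the TSS at 6 of the 78 members (7.69%) and at 1.91% of all protein-coding genes. The position was chosen after the values had been seen, and the number of members is small. The 6 were Mrpl20 (score 586), Mrpl34 (785), Mrpl40 (639), Mrpl53 (800), Mrpl54 (609) and Mrps2 (860). At Mrpl34, Mrpl54 and Mrps2 the peak held the TSS of another protein-coding gene (Abhd8, Apba3 and 1700007K13Rik), and at the other 3 it held none.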
